A study of Homo sapiens with 24 samples.

Results

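The expression of 36 genes of apoptosis and of the p53 response was followed in 3D aggregates of LUHMES cells exposed to rotenone. The genes were taken by name: every probe whose RefSeq accession belongs to a listed gene of the BCL2 family, the caspases, the inhibitors of apoptosis or the p53 targets, averaged per gene. All 36 were found among the 21239 genes tested. They comprised 4 anti-apoptotic BCL2 proteins, 3 pore-forming effectors, 8 BH3-only proteins, and 6 caspases and caspase adaptors. A further set of 6 held the inhibitors of apoptosis, their mitochondrial antagonists and AIFM1. The rest were 6 p53 targets and the 3 members of the GADD45 family.

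LUHMES is a human mesencephalic precursor line, kept dividing by a v-myc transgene that tetracycline switches off, after which the cells become dopaminergic neurons. Every aggregate, control wells included, was differentiated on a shaker with tetracycline, cAMP, GDNF and N2, and the control wells received DMSO in the amount that carried the higher dose. Rotenone, an inhibitor of respiratory complex I, was given from day 7 at 50 nM (12 or 24 h) or at 100 nM (24 h). RNA was taken when the exposure ended, a time labelled day 8, or on day 15, once the compound had been washed out and the aggregates had recovered for 7 days. This gave 8 groups of 3 wells, each well on 1 of 24 single-colour arrays: DMSO and the 3 exposures, on each of the 2 days. The labels give the DMSO wells no exposure time, and the same 3 served as control for 12 and 24 h. The replicates were wells of 1 cell line, so p-values measure only the spread between these wells.

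Replicate number 1 of every group lay on 1 slide, which was repeated at another time, and numbers 2 and 3 lay on the other slides. On that slide 67.3 to 82.4% of the spots were well above background, against 50.9 to 62.4% on the other slides, and it was corrected as a batch. Replicate 3 of 100 nM on day 15 stood apart, with a residual SD over genes of 0.45 log2 units against 0.2 to 0.31 on the other arrays. All 10 neuron markers looked for, among them TUBB3, MAP2 and SNAP25, were well above background on the 3 DMSO arrays of day 8, as were 7 of 10 dopaminergic markers, TH and SLC6A3 included. Of markers of other cells, 0 of 6 for astrocytes were above background on all 3 of those arrays, 3 of 6 for the oligodendrocyte lineage (MBP, MOG and OLIG1), 2 of 6 for microglia, 4 of 7 for fibroblasts or mural cells, 3 of 6 for endothelium, 4 of 7 for neural progenitors and 7 of 7 for cycling cells.

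Apoptosis through mitochondria is decided within the BCL2 family. BH3-only proteins, produced or activated under stress, bind and neutralise the anti-apoptotic members or activate BAX and BAK1, which then open the outer mitochondrial membrane. Released cytochrome c assembles with APAF1 and caspase 9 into the apoptosome, and released DIABLO and HTRA2 displace the inhibitors of apoptosis from the caspases. p53 drives transcription of several of these genes, of the death receptors FAS and TNFRSF10B, and of CDKN1A, which arrests the cell cycle. HRK, named Harakiri, is a BH3-only protein that binds BCL2 and BCL2L1 and is known for its induction in neurons deprived of trophic factors.

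HRK was the single member called higher (adjusted p under 0.05) with all 3 exposures on day 8, and the stretch upstream of its start is shown for that reason. The gene lies on chromosome 12 from 116856144 to 116881441 of GRCh38.p14, on the minus strand. RefSeq start windows were found for 30 of the 36 members. In the sequence below, chr12:116881442-116881691, read 5′ to 3′ on the strand of the gene and ending just before the annotated start, capitals mark the match to TGATGNAA, the core of the composite element for C/EBP and ATF factors.

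HRK: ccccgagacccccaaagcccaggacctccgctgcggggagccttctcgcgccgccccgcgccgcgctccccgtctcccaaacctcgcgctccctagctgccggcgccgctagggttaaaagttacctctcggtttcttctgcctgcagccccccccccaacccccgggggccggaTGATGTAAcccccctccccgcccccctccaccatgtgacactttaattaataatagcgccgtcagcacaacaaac

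The match began 75 bases before the start. On either strand the same letters were found in 3.14% of 35116 such windows of 250 bases over all genes and in 2 of the 56 windows of the members, those of HRK and GADD45G. The GC box, GGGCGG, occurred in its reverse form at 200 and 58 bases before the start of HRK, and was present in 42.6% of all windows. No match was found in the HRK window to the AP-1 letters TGANTCA (6.57% of all windows), the CRE letters TGACGTCA (1.65%), the E-box CACGTG (6.34%), the E2F letters TTTNNCGC (5.92%), TATAAA (10.7%) or the p53 half-site consensus (5.57%). No overlap between motifs was seen in this window, and these matches describe letters only.

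To see which death genes responded while rotenone was present, 100 nM for 24 h was compared with DMSO on day 8. HRK rose and was the single member of 36 called, that is, with a limma p-value adjusted over all genes under 0.05. Called members thus made up 2.78%, against a background of 9.48% of all genes, 4.07% called higher and 5.41% called lower. At an unadjusted p under 0.05 there were 5 members, against 20.6% of all genes. The median change of the members was 0.03 on the log2 scale and that of all genes was -0.02. Of 33 members measured in either group, 22 had a 95% interval lying wholly within a fold of 1.5. Of the 10 neuron markers, 3 were called in the same comparison, all lower (30%, against 9.48% of all genes). These were MAP2, ELAVL4 and SNAP25 (-0.57, -0.51 and -0.30). Called or not, 7 of the 10 were lower and 3 higher, the latter by at most 0.09, with a median of -0.19. The mean level of the 10 went from between 12.48 and 12.66 to between 12.30 and 12.46 per array. The part of these markers in the change of HRK was not tested. In bulk RNA a change in a level per cell and a change in the share of cells carrying it cannot be told apart.

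HRK had 1 probe on the array, well above background on all 24 arrays, so no other probe stands beside its values. The log2 normalised intensities of HRK were 9.30, 9.98 and 9.95 on the DMSO arrays of day 8, in the order of replicates 1 to 3. With 100 nM for 24 h they were 11.06, 11.08 and 10.96. Every exposed array thus lay above every control array, and the exposed arrays were close to one another. The difference was 1.29 ± 0.19 (SE, n = 3 per group), a fold of 2.44 (adjusted p = 0.00016). Within each slide, before batch correction, the difference was 1.77, 1.09 and 0.98, so that the repeated slide gave the widest gap but the sign was shared. Without the low DMSO replicate 1 the difference was 1.02 (adjusted p = 0.0014).

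**Figure D1:**
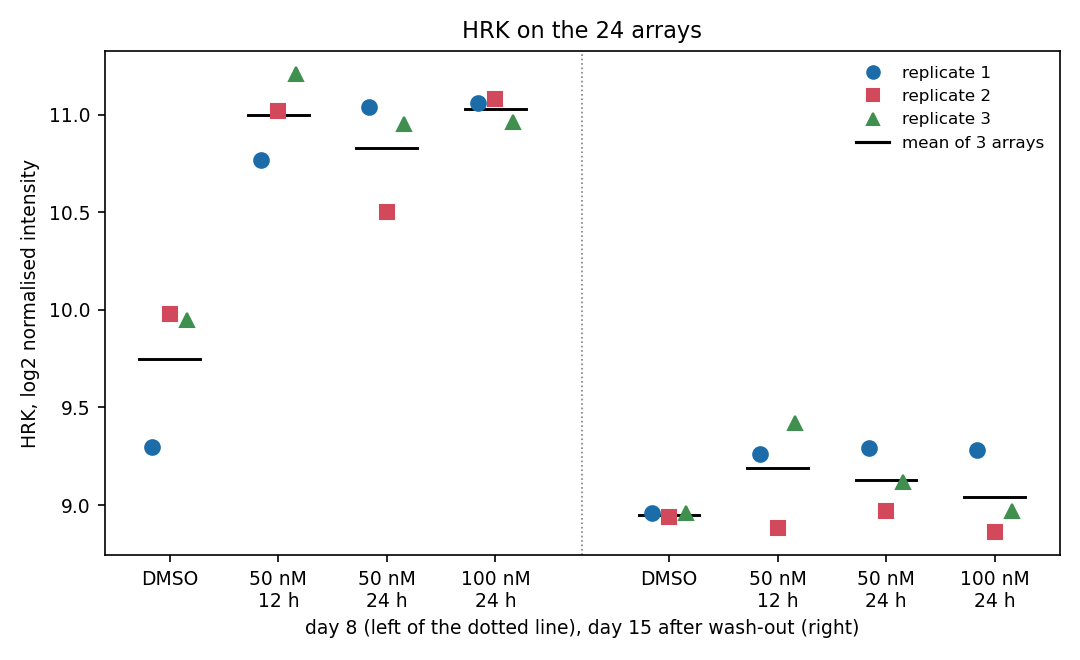
HRK on each of the 24 arrays, as log2 normalised intensity on the vertical axis, by exposure and day on the horizontal axis; symbols mark the replicate number and bars the mean of 3 arrays. The 9 exposed arrays of day 8 lie between 10.50 and 11.21, above the 3 DMSO arrays of that day, and all 12 arrays of day 15 lie between 8.86 and 9.42.

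HRK also rose at the lower dose, after either exposure time. With 50 nM it was 11.04, 10.50 and 10.95 after 24 h. After 12 h it was 10.77, 11.02 and 11.21. All 6 values lay above every DMSO array. They spread more widely than those of 100 nM, 3 lying below that group, 1 above it and 2 within it. HRK was higher than in DMSO by 1.08 ± 0.19 log2 units at 24 h (fold 2.12, adjusted p = 0.001) and by 1.25 ± 0.19 at 12 h (fold 2.38, adjusted p = 0.00045). With slides 2 and 3 alone the calls at 50 nM were lost (0.74, adjusted p = 0.14 at 24 h, and 1.14, adjusted p = 0.057 at 12 h). They were also lost when only the arrays of the compared groups entered the fit (adjusted p = 0.063 and 0.075).

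A difference between doses or between times was not shown for HRK. At 24 h, 100 nM exceeded 50 nM by 0.20 log2 units, with a 95% interval from -0.18 to 0.59. At 50 nM, 24 h stood below 12 h by -0.17, with an interval from -0.56 to 0.22. Over all 36 members none was called between the doses at 24 h (0% of all genes called, and 1 member and 4.17% of genes at an unadjusted p under 0.05). Between 24 and 12 h of 50 nM none was called either, against 0.537% of all genes, and 2 members and 10.9% of genes passed at an unadjusted p under 0.05.

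After wash-out HRK was low in every group. On day 15 it was 8.96, 8.94 and 8.96 in DMSO wells and 9.28, 8.86 and 8.97 in wells that had received 100 nM. The groups overlapped, and the difference was 0.08 (95% interval -0.31 to 0.47, adjusted p = 0.95). Wells given 50 nM for 24 h had 9.29, 8.97 and 9.12 and those given it for 12 h had 9.26, 8.88 and 9.42, higher than DMSO by 0.17 and 0.24 with adjusted p = 1.0 in both. The change with 100 nM on day 15 minus that on day 8 was -1.20 ± 0.26 (95% interval -1.75 to -0.65, adjusted p = 0.017), the single member called in that contrast, in which 2.44% of all genes were called (8 members and 14.4% of genes at an unadjusted p under 0.05). Without DMSO replicate 1 of day 8, whose HRK value was the lowest of that day, this became -0.93 (adjusted p = 0.051), and it was not called without batch correction (adjusted p = 0.10), with slides 2 and 3 alone (0.27) or with the compared groups alone (0.070).

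**Figure D2:**
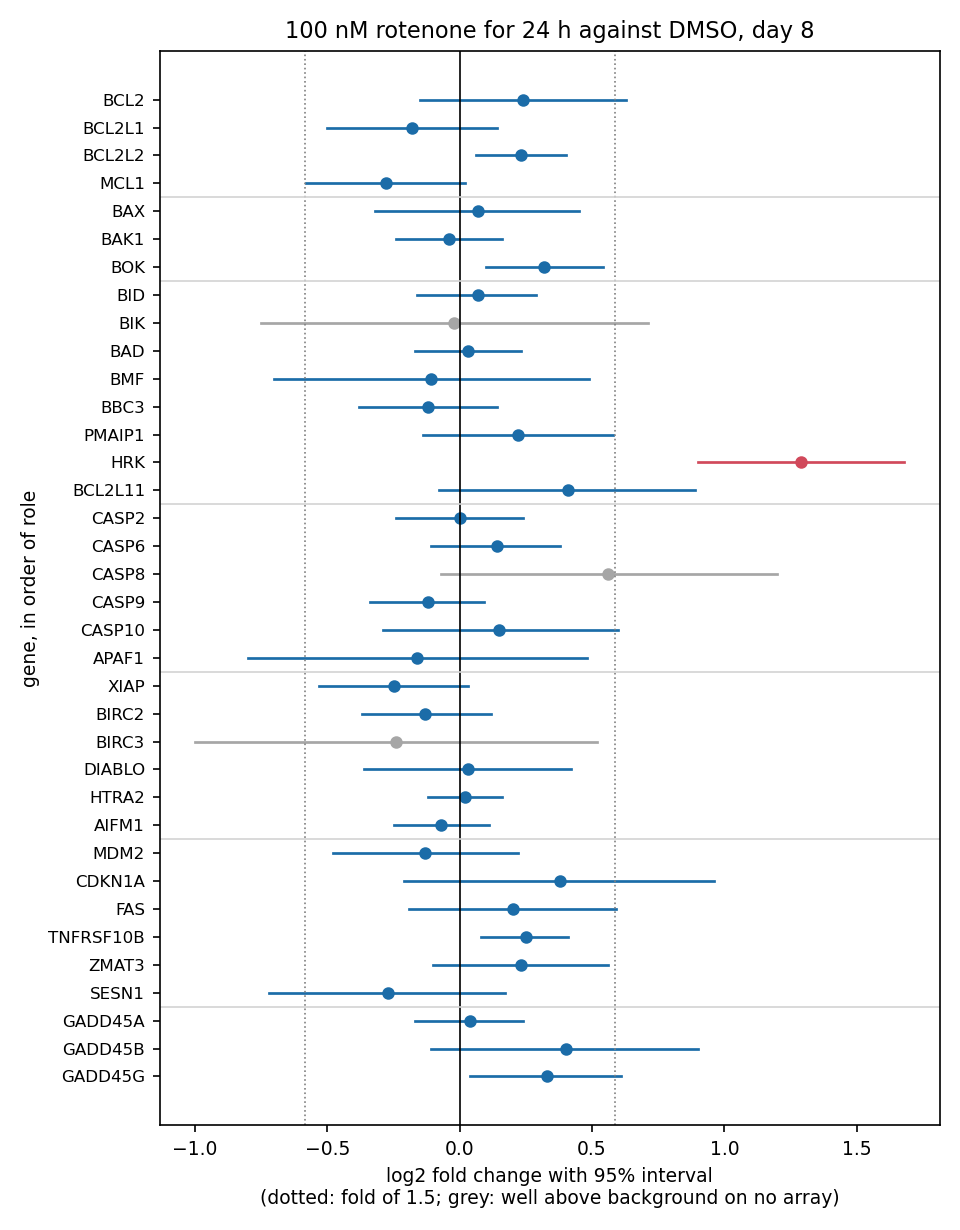
Log2 fold change with 100 nM rotenone for 24 h on day 8 for each of the 36 genes, horizontal axis, with the 95% interval of the fit as a line; genes are ordered by role on the vertical axis, the called gene is red, and genes well above background on no array of either group are grey. HRK, at 1.29, stands to the right of every other gene, and the other points lie between -0.28 and 0.56.

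TNFRSF10B, the death receptor for TRAIL and a p53 target, was the other member called on day 8, with 50 nM for 12 h, so that 2 of 36 (5.56%) were called against 5.52% of all genes (2.66% higher and 2.85% lower), and 7 members against 16.8% of genes had an unadjusted p under 0.05. Its levels were 11.20, 10.95 and 11.14 in DMSO and 11.27, 11.47 and 11.47 after 12 h. The groups did not overlap, but the arrays of replicate 1 lay close together. The difference was 0.31 (fold given by the fit 1.24, adjusted p = 0.026), and within slides it was 0.06, 0.53 and 0.33. With 24 h of 50 nM (11.30, 11.25 and 11.33) it was 0.20 (adjusted p = 0.15), and with 100 nM (11.40, 11.30 and 11.33) it was 0.25 (adjusted p = 0.054), neither of them called. The 12 h call was lost without DMSO replicate 2 (adjusted p = 0.14), without exposed replicate 2 (0.12) or 3 (0.11), without batch correction (0.62), with slides 2 and 3 alone (0.15) and with the compared groups alone (0.28). When the batch correction was replaced by a block for the slide, 4 members were called at 12 h, BID and MCL1 beside HRK and TNFRSF10B. With 50 nM for 24 h HRK was again the single call, 2.78% against 8.02% of all genes (3.66% higher, 4.36% lower), with 8 members and 19.6% of genes at an unadjusted p under 0.05. The 3 comparisons of day 8 share their DMSO arrays.

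The anti-apoptotic proteins, which hold the pore formers in check, gave no call with any exposure. In the order of 100 nM, then 50 nM after 24 h, then 50 nM after 12 h, which is kept below, the difference of BCL2 from DMSO was 0.24, 0.40 and 0.40 log2 units (lowest adjusted p = 0.23), although 1 of its 2 probes rose by 0.51 after 24 h of 50 nM (adjusted p = 0.043) where the other gave 0.30. BCL2L2, known as BCL-w, differed by 0.23, 0.19 and 0.24 (lowest adjusted p = 0.089) and its exposed and control arrays did not overlap in any of the 3. MCL1, a short-lived member of this class, differed by -0.28, -0.24 and -0.41 (lowest adjusted p = 0.12), and BCL2L1, which encodes BCL-XL, by -0.18, -0.38 and -0.18 (lowest adjusted p = 0.15). The 4 genes of this class thus pointed in different directions and none of the differences was called.

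Among the pore-forming effectors, BAX and BAK1 differed from DMSO on day 8 by no more than 0.12 log2 units in either direction with any exposure. BOK, their relative that is active without BH3 binding, had 9.93, 10.05 and 9.96 in DMSO and 10.36, 10.39 and 10.16 with 100 nM. All 3 exposed arrays were above the controls, at 0.32 (adjusted p = 0.059), which missed the threshold.

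The BH3-only proteins other than HRK were not called on day 8. BBC3, the p53 target PUMA, differed by -0.12, -0.16 and -0.09 with the 3 exposures, and BAD, which couples survival kinases to BCL2L1, by 0.03, -0.20 and -0.08. PMAIP1, the p53 target NOXA, had 6.57, 6.46 and 6.53 in DMSO, 5.85, 6.29 and 6.76 after 12 h of 50 nM, 7.15, 6.93 and 6.93 after 24 h of it, and 6.79, 6.83 and 6.61 with 100 nM. The 12 h arrays spread widely and the 24 h arrays of 50 nM all lay above them. That difference of 0.70 missed the threshold (adjusted p = 0.073), and it was called in 4 of the 11 other ways of processing and without 12 h replicate 3. BCL2L11, which encodes BIM, differed by 0.41, 0.24 and 0.32 (lowest adjusted p = 0.35). BMF differed by -0.11 with 100 nM on the average of 2 probes that disagreed: the probe measured on all 24 arrays fell by 0.44 (adjusted p = 0.0093), and also with 50 nM for 24 h (-0.40, adjusted p = 0.019), and the other, measured on 12, gave 0.22 and 0.04. BID differed by 0.07, 0.07 and 0.30 (lowest adjusted p = 0.12), and 1 of its 2 probes rose by 0.34 after 12 h (adjusted p = 0.033) where the other gave 0.27.

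No caspase or caspase adaptor was called with rotenone. CASP9, the initiator of the apoptosome, differed by -0.12, -0.13 and 0.07 with the 3 exposures of day 8, and CASP6, an executioner linked to axon breakdown, by 0.14, 0.05 and 0.12. CASP2 lay within 0.05 of DMSO. CASP8, the initiator at death receptors, was not well above background on any array. CASP10 was measured on all arrays by 1 of its 3 probes, which gave 0.70 with 100 nM (adjusted p = 0.075) where the other probes gave -0.13 and -0.11.

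The inhibitors of apoptosis and their antagonists were also not called. XIAP, the direct caspase inhibitor, differed by -0.25, -0.06 and 0.15 with the 3 exposures, BIRC2 by -0.13, -0.15 and -0.20, and BIRC3 was not well above background on any array. With 100 nM the XIAP probe measured on all 24 arrays gave -0.04, and the other, measured on 11, gave -0.46. DIABLO and HTRA2, released from mitochondria to free the caspases, and AIFM1, which carries death signals to the nucleus, stayed within 0.12 log2 units of DMSO in all 3 comparisons. For DIABLO this is the average of 2 probes, both measured on all 24 arrays. They gave -0.11 and 0.16 with 100 nM, and -0.17 and 0.28 with 50 nM for 12 h, none of these called.

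The standard readouts of p53 activity showed no call. CDKN1A had 5.91, 5.61 and 5.71 in DMSO on day 8 and 6.06, 6.25 and 6.04 with 100 nM. The arrays did not overlap, but the difference of 0.38 had a 95% interval from -0.21 to 0.96 (adjusted p = 0.53), so a fold of 1.5 in the upward direction remained within it. MDM2, the ligase that p53 induces and that degrades p53, had 5.93, 6.24 and 6.08 in DMSO and 5.90, 6.12 and 5.84 with 100 nM, which overlapped (-0.13, 95% interval -0.48 to 0.22, adjusted p = 0.77). The 4 MDM2 probes differed. Those well above background on all 24 arrays gave -0.45 (adjusted p = 0.068) and -0.11. Those so on 22 and 7 arrays gave -0.01 and 0.04. FAS, ZMAT3 and SESN1 differed by 0.20, 0.23 and -0.27 with 100 nM, with adjusted p = 0.65, 0.47 and 0.55. The FAS probe well above background on 23 arrays gave -0.12, and those so on 1 and 8 arrays gave 0.45 and 0.27. Of the GADD45 genes, which stress induces and which act in repair and in JNK and p38 signalling, GADD45G differed by 0.33, 0.43 and 0.39 with the 3 exposures (lowest adjusted p = 0.062); of its 2 probes, 1 rose by 0.58 after 24 h of 50 nM (adjusted p = 0.015) and the other gave 0.28. GADD45A lay within 0.08 of DMSO, and GADD45B was well above background on 1 of the 3 DMSO arrays of day 8.

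**Figure D3:**
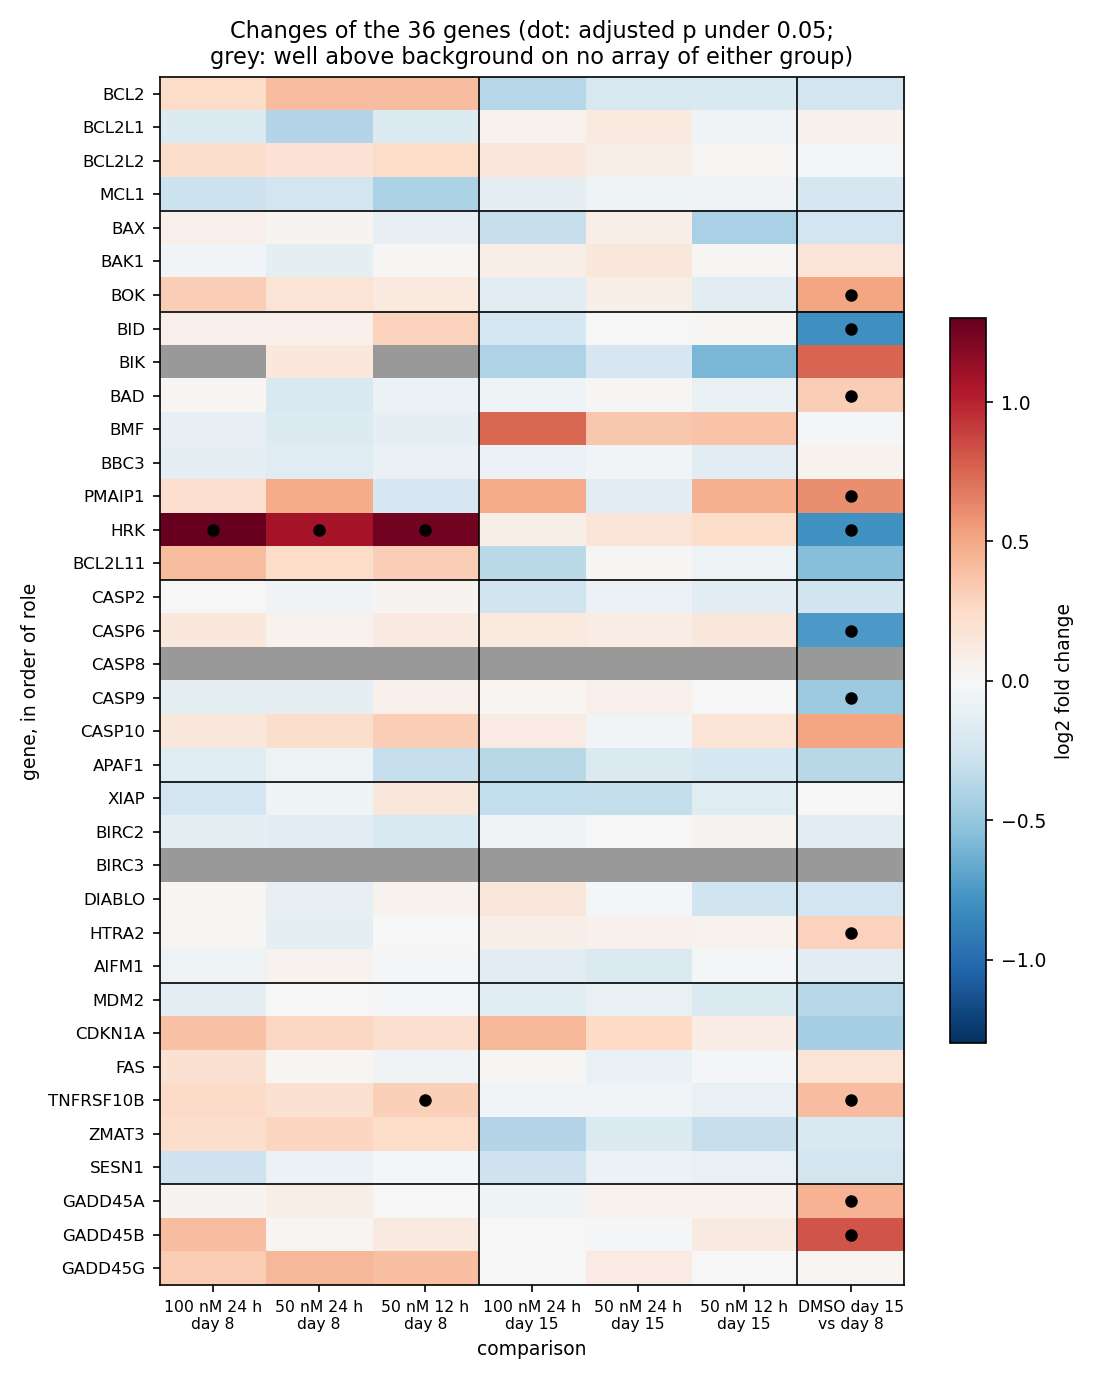
Log2 fold change, as colour, of the 36 genes in rows grouped by role, for the 3 exposures on day 8, the same exposures on day 15, and DMSO on day 15 against day 8, in columns; dots mark adjusted p under 0.05 and grey cells genes well above background on no array of either group. The HRK row carries the calls of all 3 day 8 columns, the day 15 rotenone columns carry none, and the last column carries 11.

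On day 15, after recovery, none of the 36 members was called against DMSO of that day in any of the 3 comparisons, and neither was any other gene (0% of all genes). At an unadjusted p under 0.05 there were 6 members with 100 nM, against 7.21% of all genes, and 2 each with 50 nM for 24 h (3.28%) and for 12 h (3.47%). The 6 were PMAIP1 (0.48) and BMF (0.75), which were higher, and BID (-0.23), CASP2 (-0.26), XIAP (-0.32) and ZMAT3 (-0.38), which were lower, all with adjusted p from 0.63 to 0.69. PMAIP1 was 7.02, 7.08 and 7.26 in DMSO on day 15, 7.52, 7.49 and 7.78 with 100 nM, and 7.81, 7.49 and 7.43 with 50 nM for 12 h. It was 7.06, 7.12 and 6.74 with 50 nM for 24 h, a group that overlapped DMSO. BMF was 6.60, 6.58 and 5.95 in DMSO and 6.66, 6.92 and 7.78 with 100 nM, the highest value being on the array that stood apart. Without that array, replicate 3 of 100 nM, only BID of the 35 members then tested had an unadjusted p under 0.05 (-0.29, with 3.9% of all genes). The others of the 6 were then 0.38 (PMAIP1), 0.41 (BMF), -0.09 (CASP2), -0.30 (XIAP) and -0.11 (ZMAT3). With every array kept, the BMF probe measured on all 24 gave 0.26 with 100 nM, and the other, measured on 12, gave 1.23. The XIAP probe measured on all 24 gave -0.13, and the other, measured on 11, gave -0.50. CDKN1A was 5.61, 5.31 and 6.31 with 100 nM against 5.59, 4.82 and 5.53 in DMSO (0.43, adjusted p = 0.75). Of 34 members measured in either group, 23 had an interval within a fold of 1.5 with 100 nM.

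More members were called with the age of the aggregates than with rotenone, and the same held for all genes. With rotenone at most 9.48% of all genes were called in any comparison with DMSO. Between DMSO wells of day 8 and day 15, 11 of 36 (30.6%) were called, against 23.2% of all genes, and 16 against 33.7% of genes had an unadjusted p under 0.05. The 7 that were higher on day 15 were BOK, BAD, PMAIP1, HTRA2, TNFRSF10B, GADD45A and GADD45B, against 10.1% of all genes called higher, and the 4 that were lower were BID, HRK, CASP6 and CASP9, against 13.2% called lower. Of the 36 members, 5 were both called and over a fold of 1.5, against 12.2% of all genes. With slides 2 and 3 alone, 3 were called (BID, HRK and TNFRSF10B), and in the slide holding replicate 1 all 11 had the same sign as in the others.

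BID, which links death receptors to the mitochondrial route once caspase 8 cleaves it, had 10.42, 10.27 and 10.51 in DMSO on day 8 and 9.56, 9.48 and 9.75 on day 15. It fell by 0.80 log2 units (fold 1.75, SE 0.11, adjusted p = 1.6e-05), and both of its probes fell. With rotenone it kept this separation: the 12 arrays of day 8 lay between 10.27 and 10.78 and the 12 of day 15 between 9.18 and 9.76. CASP6 had 8.99, 8.75 and 8.77 on day 8 and 7.95, 7.99 and 8.34 on day 15, and fell by 0.75 (fold 1.68, SE 0.12, adjusted p = 0.0001). CASP9 had 9.0, 8.88 and 8.76 on day 8 and 8.33, 8.44 and 8.46 on day 15, and fell by 0.47 (adjusted p = 0.0022). No array of day 15 reached any of day 8 for either caspase, exposed wells included. With slides 2 and 3 alone the adjusted p of CASP6 was 0.053 and that of CASP9 was 0.058. HRK in DMSO fell by 0.79 (fold 1.73, adjusted p = 0.0039), by 0.33, 1.06 and 1.01 within the slides.

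The members that were higher on day 15 moved less in most cases. BOK had 9.93, 10.05 and 9.96 in DMSO on day 8 and 10.65, 10.41 and 10.41 on day 15, higher by 0.51 (adjusted p = 0.0013). HTRA2 had 10.53, 10.44 and 10.44, then 10.80, 10.81 and 10.70, higher by 0.30 (adjusted p = 0.0027). TNFRSF10B, at 11.52, 11.52 and 11.43 on day 15, was higher by 0.40 (adjusted p = 0.00097). These 3 pairs of groups did not overlap, and the calls of BOK and HTRA2 were lost with slides 2 and 3 alone (adjusted p = 0.080 and 0.097), that of HTRA2 also with the compared groups alone (0.075), and that of TNFRSF10B without batch correction (0.12).

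GADD45A had 11.23 on each of the 3 DMSO arrays of day 8 and 11.81, 11.66 and 11.57 on day 15, higher by 0.45 (adjusted p = 0.0022, and 0.11 with slides 2 and 3 alone). PMAIP1 was higher by 0.60 (fold 1.52, adjusted p = 0.015), from 6.46 to 6.57 on day 8 to 7.02 to 7.26 on day 15; without DMSO replicate 2 of day 8 the adjusted p was 0.052, without replicate 3 of day 15 it was 0.064, and without batch correction it was 0.068. BAD had 11.24, 11.10 and 11.20, then 11.60, 11.41 and 11.50, higher by 0.32 (adjusted p = 0.018), but in the deposited normalised values it was lower by -0.09 (adjusted p = 0.61), and the call was lost without DMSO replicate 2 of day 8 (0.080) or replicate 1 of day 15 (0.084), and in 5 further settings in which it kept its sign. GADD45B had 4.20, 4.55 and 3.79, then 4.71, 5.35 and 4.94, close to the background: it was well above it on 1 of 3 arrays and then on 2 of 3, and the difference of 0.82 (adjusted p = 0.018) was not called without replicate 3 of day 8 (0.096) or replicate 2 of day 15 (0.091), and its size ran from 0.27 with a normexp offset of 50 to 2.25 with the processed signal. Of the 11, BAD alone turned its direction in an alternative, and the size of GADD45B rests on dim spots.

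**Figure D4:**
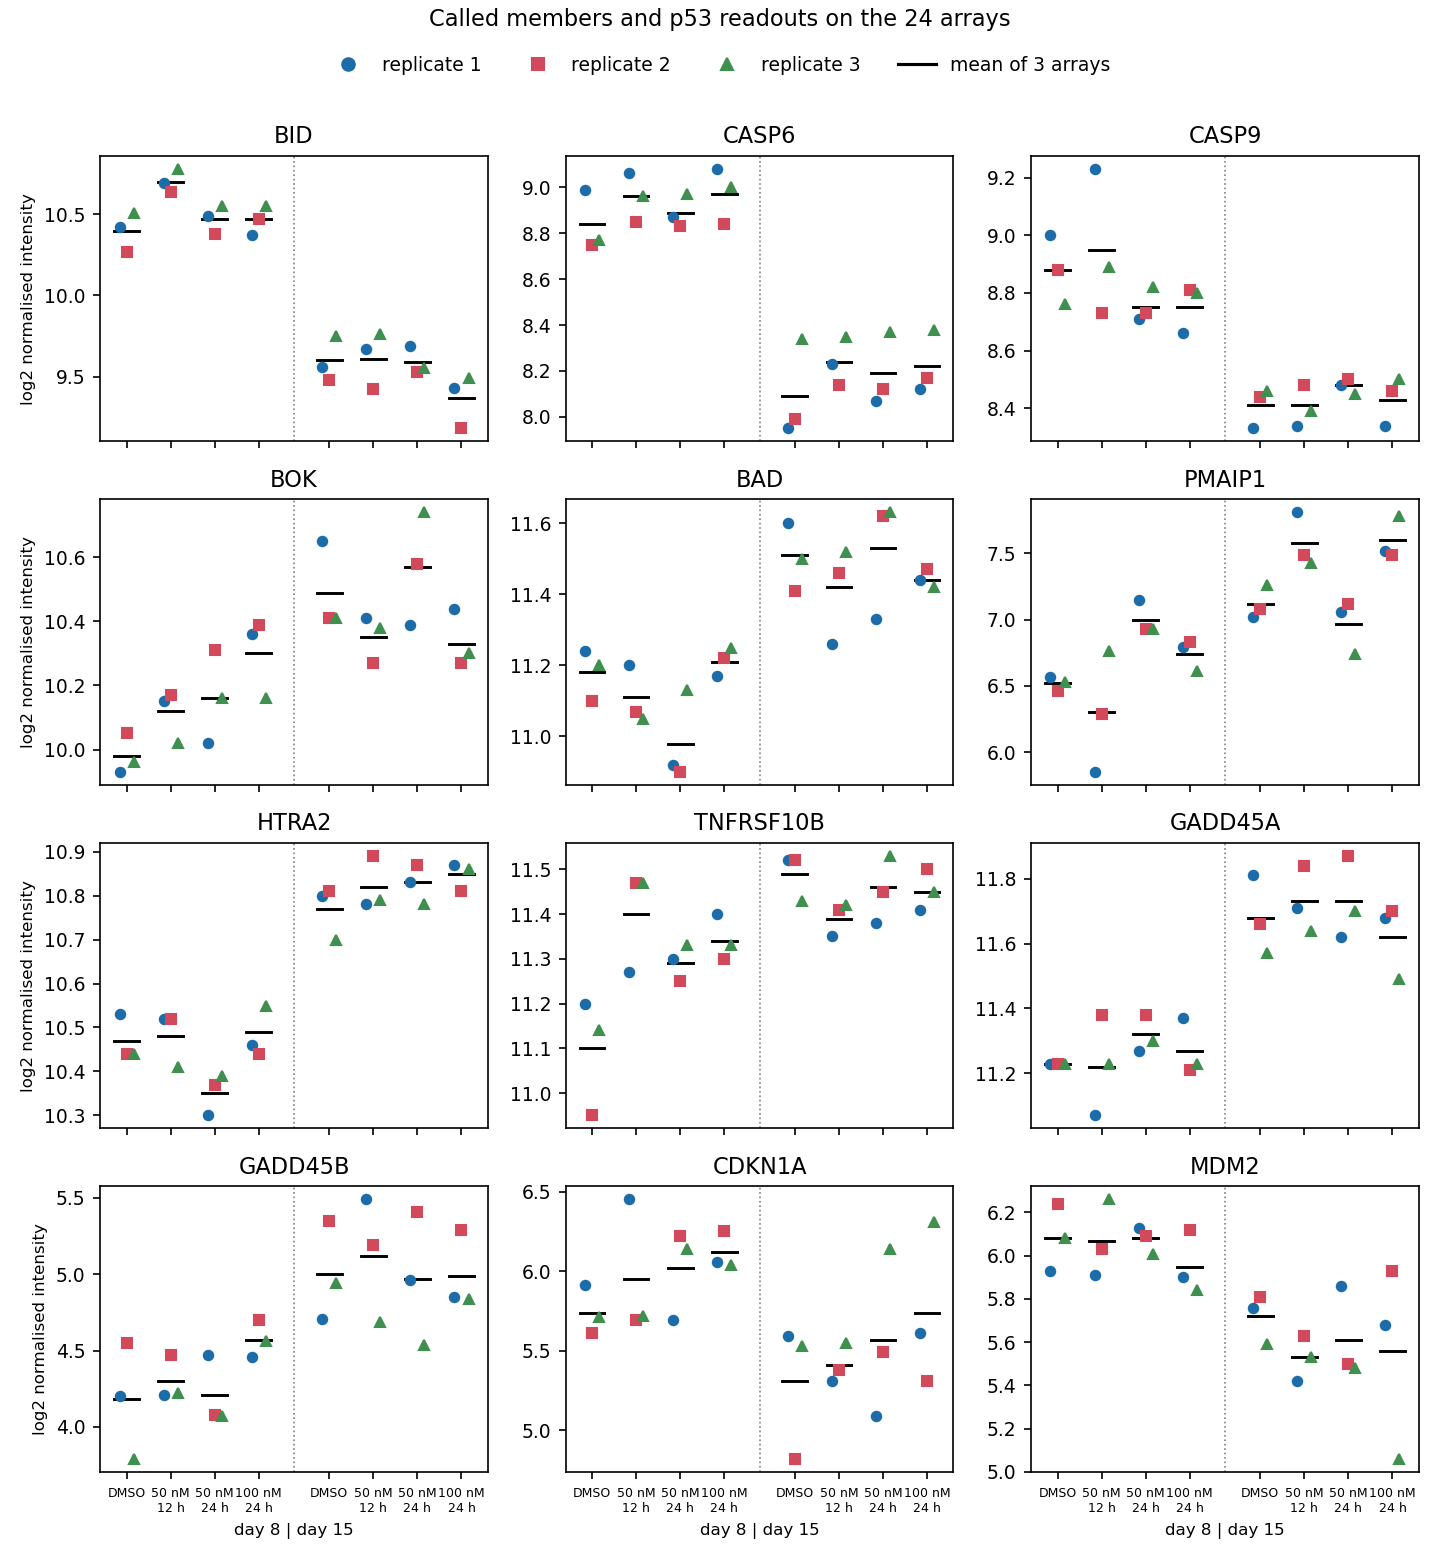
Log2 normalised intensity on each of the 24 arrays, vertical axes, for the other 10 called members and the p53 readouts CDKN1A and MDM2, by exposure on the horizontal axes, with day 8 left and day 15 right of the dotted lines; symbols mark the replicate number and bars the mean of 3 arrays. BID, CASP6 and CASP9 step down from day 8 to day 15 and HTRA2, BAD and GADD45A step up, in exposed and control wells alike.

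Taking all 12 arrays of each day, exposed wells included, 9 of 36 members did not overlap between the days, against 12.6% of all genes: BID, BAD, BCL2L11, CASP2, CASP6, CASP9, HTRA2, ZMAT3 and GADD45A. Of these BCL2L11, CASP2 and ZMAT3 were lower on day 15 in DMSO but not called (-0.55, -0.26 and -0.20, with adjusted p = 0.099, 0.11 and 0.41). The 3 probes of BCL2L11 disagreed, since the one measured on all arrays fell by 1.08 (adjusted p = 2.9e-05) and the others gave 0.04 and -0.59. Probes of BCL2, MDM2 and CASP10 also differed. For BCL2, 1 probe fell by 0.45 (adjusted p = 0.035) where the other gave -0.05. Of 4 MDM2 probes, 1 fell by 0.54 (adjusted p = 0.012), and the others gave -0.47 and -0.45, not called, and 0.00. The well-measured CASP10 probe was higher by 1.02 (adjusted p = 0.0039). All 7 markers of cycling cells that were tested, MKI67 and CCNB1 among them, also fell over this week in DMSO wells, with log2 changes between -2.01 and -0.71, their mean level per array going from between 5.52 and 6.35 to between 4.39 and 4.54. Of the 10 dopaminergic markers 5 were called with no common direction: TH and SLC6A3 fell by 2.94 and 2.07, NR4A2, LMX1B and PITX3 rose by 1.57, 0.74 and 0.46, and the median was 0.12. The part of either list in the changes of the members was not tested.

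The wider pathway was read from 3 further lists. Like the members, they were chosen with earlier results of these data known. Their shares of called genes, here and with age below, are therefore descriptive and no independent support. Of 30 other p53 targets, 8 were called with 100 nM on day 8, 4 in each direction (26.7%, against 9.48% of all genes), 8 with 50 nM for 24 h (5 higher, 3 lower, 26.7% against 8.02%) and 6 with 50 nM for 12 h (3 higher, 3 lower, 20.0% against 5.52%). The median changes were 0.05, 0.12 and 0.12. NINJ1, a membrane protein that ruptures dying cells, rose from 10.46 ± 0.09 (SD, n = 3) to 11.17 ± 0.07 with 100 nM, a difference of 0.72 (adjusted p = 7.4e-05). PHLDA3, an inhibitor of AKT, rose by 0.53, and the kinase PLK3 by 0.45. TIGAR, which lowers glycolytic flux, fell from 7.99 ± 0.23 to 6.93 ± 0.23, by 1.06 (adjusted p = 7.0e-05). SESN2, a sestrin that restrains mTORC1, fell by 0.55, and PPM1D, the phosphatase that switches p53 off, fell by 0.45. All 6 of these were called in the same direction with both 50 nM exposures, which share the DMSO arrays with 100 nM. The list thus moved in both directions. All 7 cycling markers were lower with 100 nM (median -0.26) but none was called, their mean level per array lying between 5.08 and 5.89 against 5.52 to 6.35 in DMSO. With 50 nM for 12 h all 7 were lower too (median -0.26). With 50 nM for 24 h 4 of the cycling markers were lower and 3 higher (median -0.06). None of them was called with 50 nM. Their part in the changes of the p53 targets was not tested.

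Of 40 other genes of the apoptotic machinery, 6 were called with 100 nM on day 8, 3 in each direction (15%, against 9.48% of all genes), 4 with 50 nM for 24 h (10%, against 8.02%) and 5 with 50 nM for 12 h (12.5%, against 5.52%). RIPK1, the kinase that directs death receptor signalling, fell from 8.73 ± 0.06 to 7.94 ± 0.06, by 0.79 (adjusted p = 0.00027), and was called lower with both 50 nM exposures as well (-0.58 and -0.61). BCL2L10 fell by 0.70 and BNIP3L, a receptor for removal of mitochondria, by 0.26. DAP rose by 0.56, DFFA, the inhibitor of the apoptotic nuclease, by 0.39 and AVEN, an APAF1-binding inhibitor, by 0.26. Of 14 regulators that tie stress to death, 3 were called with 100 nM (21.4%, against 9.48% of all genes). With 50 nM 3 were called for 24 h (21.4%, against 8.02%) and 2 for 12 h (14.3%, against 5.52%). CEBPB rose by 0.64 with 100 nM (adjusted p = 0.00066) and ATF5 by 0.50, and CHAC1, which degrades glutathione, fell by 0.43 with 100 nM, by 0.68 with 50 nM for 24 h and by 1.1 for 12 h (adjusted p = 1.1e-05). On day 15 no gene of the 3 lists was called in any comparison with DMSO of that day.

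**Figure D5:**
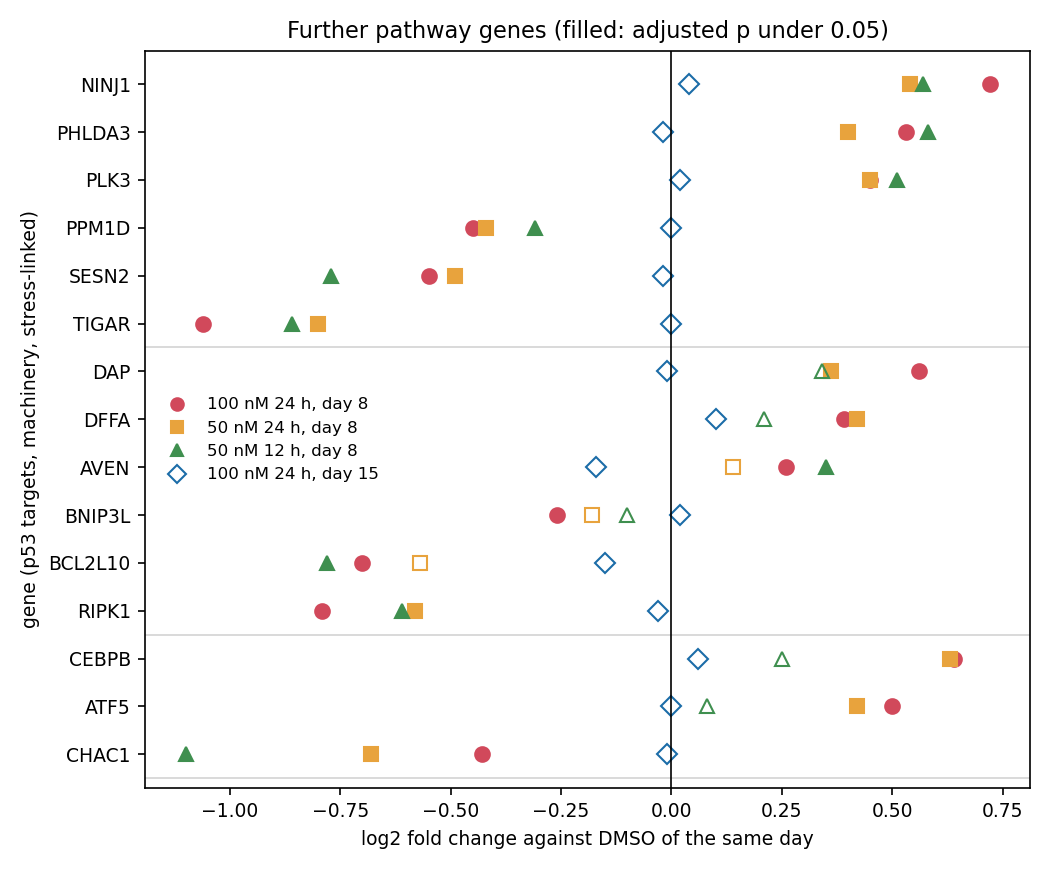
Log2 fold change against DMSO of the same day, horizontal axis, of 15 genes of the further lists, vertical axis, for the 3 exposures of day 8 and for 100 nM on day 15; filled symbols are called, and lines separate p53 targets, apoptotic machinery and stress-linked genes. The day 8 symbols of each gene share 1 side of 0, and the open diamonds of day 15 lie near 0.

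With age, in DMSO wells, 18 of the 30 other p53 targets were called (60%, against 23.2% of all genes), 16 of them lower on day 15, with a median of -0.34 against -0.04 over all genes. BTG2, an inhibitor of proliferation, fell by 1.33 (adjusted p = 8.1e-10) and the decoy TRAIL receptor TNFRSF10D by 1.85 (adjusted p = 1.6e-05). The 2 that were higher were NINJ1 (0.74) and PHLDA3 (0.75), both of which had also risen with rotenone on day 8. BTG2 and TNFRSF10D were named after their values were seen. Of the machinery genes, 10 of 40 were called (25%; 7 higher, 3 lower), and of the stress-linked genes 6 of 14 (42.9%; 3 higher, 3 lower). The cycling markers that fell in the same comparison stand beside these counts too, and their part was not tested.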

How the data were processed

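Total RNA of 24 wells was labelled with Cy3 and hybridised to Agilent SurePrint G3 arrays. The authors deposited scanner intensity values from Feature Extraction (11.5.1.1 in their notes; the file headers give 12.0.0.7 for the 8 arrays of slide 2) and a table of normalised log2 values, which the authors made with normexp, quantile normalisation, ComBat and a brightness filter, and which served as an alternative.

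Here the median intensity was background corrected with normexp (offset 0), quantile normalised and corrected for the repeated slide by parametric empirical Bayes with the groups kept as covariates. A spot was kept when it exceeded 1.1 times the 95th percentile of negative control spots on 3 arrays or more. Outlier-flagged values were removed, and spots were averaged per probe and probes per gene, named by RefSeq accession (GRCh38.p14). All 8 groups were fitted together in limma 3.58.1 (R 4.3.3), with Benjamini-Hochberg adjustment over 21239 genes. "Well above background" is Feature Extraction's own flag; a gene counted where any of its probes carried it. Of the members, 30 carried it on all 24 arrays and CASP8 and BIRC3 on none; no member spot was saturated. The steps were run on simulated data with known changes; most were recovered, but false calls were more frequent than the adjusted threshold implies, so calls near it are less sure than their adjusted p. The small number of arrays limits the precision.

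The replicate number is the slide. Before batch correction, deviations from the group means correlated at 0.171 to 0.773 over the 84 same-number pairs (median 0.458, against -0.354 for other pairs). Arrays of the same number thus shared a deviation. The medians are tied to each other through the subtracted group means. Since the number is the slide, these values cannot tell a shared slide from paired wells. The main fit held no term for the number beyond the batch correction.

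Values of every array are given for members called against DMSO of the same day or between days, and for CDKN1A and MDM2; of each further list, up to 3 called genes per direction with the smallest p with 100 nM on day 8. The members and the lists were chosen with earlier results of these data known. Promoter windows were read with Python 3.11.15.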

Additional observations from a re-analysis of the deposited data

Results flagged for a closer look

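The change of HRK with 100 nM rotenone differed between the days by a test of the difference itself. On day 8 HRK was 1.29 log2 units above DMSO, and on day 15, after wash-out, 0.08 above it. The change on day 15 minus that on day 8 was -1.20 ± 0.26 (limma, adjusted p = 0.017). The DMSO level itself was lower on day 15 (8.95 ± 0.01 against 9.75 ± 0.38, SD, n = 3).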

How the results depend on the processing

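Counts of called members against DMSO with 100 nM for 24 h on day 8 (1) became 2 with Feature Extraction's processed signal, 4 with a normexp offset of 50, 3 with 75th percentile scaling, 6 with probes well above background in a group, 3 with the brightest probe per gene and 2 in the deposited values, and ran from 1 to 2 with 1 array left out (2 without DMSO replicate 1 or exposed replicate 2 or 3). HRK has no value in the deposited table; in the other 10 alternatives and all 6 fits with 1 array left out its call with 100 nM held, at 1.02 to 1.43 (adjusted p from 2.1e-05 to 0.044). With 50 nM for 24 h (1) the counts were 3, 2, 2, 3, 4 and 2 in the same order, and 0 with slides 2 and 3 alone or with the compared groups alone (1 to 2 with 1 array left out; 2 without DMSO or exposed replicate 1). With 50 nM for 12 h (2) they were 4 with the offset of 50, 4 with the brightest probe, 1 without batch correction, 4 with the replicate block, and 0 with slides 2 and 3 or the compared groups alone (1 to 3 with 1 array left out; 1 without DMSO replicate 2 or exposed replicate 2 or 3). For DMSO of day 15 against day 8 (11) the count was 3 with slides 2 and 3 and 9 to 11 with 1 array left out, and BAD reversed to -0.09 in the deposited values. For 24 against 12 h of 50 nM (0) it was 1, PMAIP1, with the processed signal, the offset of 50, probes well above background and the deposited values (0 to 1 with 1 array left out; 1 without 12 h replicate 3). For the difference between days with 100 nM (1) it was 2 with the offset of 50, 75th percentile scaling, probes well above background and the brightest probe, and 0 without batch correction, with slides 2 and 3 or with the compared groups alone (0 to 1 with 1 array left out; 0 without DMSO replicate 1 of day 8). The 3 day 15 comparisons with rotenone and that between doses gave 0 in all 11 alternatives and all fits with 1 array left out. The replicate block changed no other call of a member. Of the recomputed changes of single called members, 235 kept their direction and call and 37 kept their direction but missed the threshold. The processed signal moved the median of all genes by 0.15 between days and 75th percentile scaling by 0.14 in the difference between days. A fit on mean in place of median spot signal was not run. The cause of these shifts was not tested.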
